A study of Danio rerio with 12 samples.

Results

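Kinesins are motor proteins that use ATP to move along microtubules or to take their ends apart. Some build and drive the mitotic spindle and the machinery of cytokinesis, and their transcripts are abundant where cells divide. Others carry vesicles, organelles and RNA along axons, or move building material and signals within cilia. A zebrafish embryo of about 1 day holds dividing cells and neurons that are extending axons, so both kinds of motor are transcribed in it.

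The kinesin genes were the rows of the normalized table whose symbol begins with kif followed by a digit or by c, which gave 17 of 14134 genes. Of these, 16 encode motors. The other is kif1bp, which encodes a kinesin-binding protein without a motor and is listed by RefSeq as kifbp. The motors comprised 8 mitotic kinesins (kif2c, kif4, kif11, kif14, kif18a, kif20a, kif22 and kif23), 4 kinesins of axonal transport (kif1b, kif3cb, kif5aa and kif5c) and 4 of cilia (kif3a, kif3b, kif6 and kif7). These classes follow textbook roles: kif3a and kif3b also move cargo in axons, and kif5aa and kif5c also act outside neurons. All 17 had a mean of at least 1 CPM, so that none was set aside by the minimum; the lowest count of any of them in a library was 24 reads and the highest 8798.

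Whole zebrafish embryos that were GFP-positive and had been taken out of the chorion entered treatment at 23 hours post-fertilization. They were kept in 50 µM empagliflozin, in 50 µM canagliflozin or in DMSO as control, and RNA was extracted at 27 hours, after 4 hours. Each of the 3 groups had 4 pools of 5 embryos, and each pool gave 1 library. The labels do not give the strain, the GFP transgene or the clutches, nor do they say whether the treated embryos also received DMSO. If the pools of a group share a clutch, the p-values measure only the spread between those pools. Both compounds inhibit SGLT2, a sodium-glucose cotransporter of the kidney tubule.

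Levels are given in CPM, the counts of a gene scaled to the depth of its library and by TMM, a correction for library composition. Libraries held 16149682 to 27842375 reads, so that 1 read was worth 0.0363 to 0.0621 CPM. CPM is not corrected for transcript length, and levels are therefore compared between groups and not between genes. Differences are of mean log2(CPM + 1), tested with limma and adjusted by Benjamini-Hochberg over all 11964 genes with a mean of at least 1 CPM. A gene was called at an adjusted p of 0.05 or less. In whole embryos, fewer cells of a type and less RNA per cell cannot be told apart.

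Pool 4 of canagliflozin and pool 4 of the controls stood apart from their groups. On the principal axis of all tested genes the empagliflozin pools scored 15.6 to 18.6, canagliflozin 4 scored 5.95, control 4 scored 7.52 and the other 6 pools scored -17.9 to -8.92. The deviations of canagliflozin 4 and control 4 from their group means correlated at 0.59 across the 11964 genes, which are not independent of each other. Counts of calls and several of the results below are therefore also given without these 2 pools. Both stand apart toward empagliflozin on that axis, so leaving them out favors larger differences from empagliflozin over the whole table. For kif1b, kif3cb and kif3b both lay away from empagliflozin instead, and leaving them out made the differences of these genes smaller. Calls among all tested genes then went from 1589 to 4246 for empagliflozin against control. Calls gained in this way are not separate support for a difference. Of the 13 neuron markers and 26 spindle genes measured, 0 were at 0 in any pool.

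**Figure D1:**
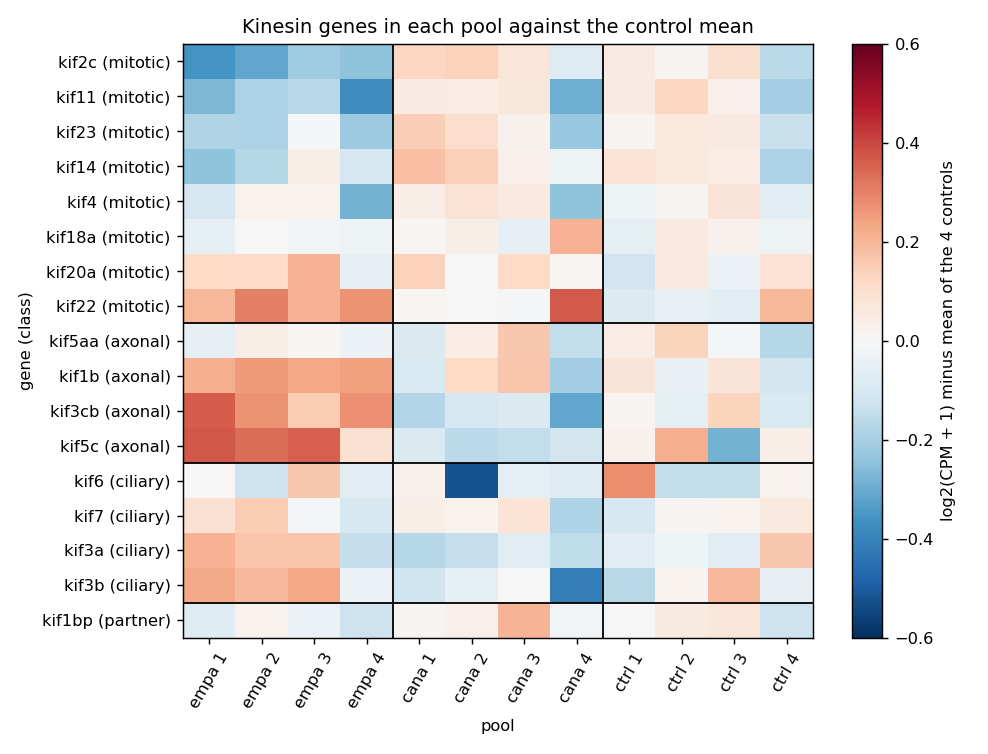
Heat map of 17 kinesin genes (down, by class) in 12 pools (across, with empagliflozin left, canagliflozin in the middle and controls right). Color shows log2(CPM + 1) minus the mean of the 4 controls; kif1b, kif3cb and kif5c are higher in the empagliflozin pools, kif2c and kif11 are lower, and kif22 is also high in pool 4 of canagliflozin (185.9 CPM) and of control (165.3 CPM).

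Empagliflozin against control asks which kinesin transcripts differ after 4 hours in that compound. A single kinesin, kif2c, passed the test, and it was lower with empagliflozin. The mitotic kinesins did not move as a block: kif2c and kif11 had the lowest differences, kif22 the highest, and kif18a was nearly level. Among the axonal kinesins kif1b, kif3cb and kif5c had higher means, and kif5aa was level.

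The lower level of kif2c was seen in every pool. kif2c (Entrez 100136875) encodes a motor that does not walk but removes tubulin from microtubule ends, and so corrects faulty attachments at centromeres. It stood at 64.2, 66.3, 71.2 and 69.7 CPM in empagliflozin pools 1 to 4, and at 85.4, 83.7, 88.4 and 73.6 CPM in control pools 1 to 4. All 4 empagliflozin pools lay below all 4 controls, and control 4 came nearest to them. The means were 67.9 ± 3.17 and 82.8 ± 6.42 CPM (SD, n = 4 each). On the log2 scale the difference was -0.28 (95% interval -0.44 to -0.13; limma adjusted p 0.0256), and in edgeR on recovered reads the adjusted p was 0.0266.

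This call depended on the pools that entered. It was lost without empagliflozin 1 (limma adjusted p 0.0664), empagliflozin 2 (0.0669), control 1 (0.0675), control 2 (0.0727) or control 3 (0.0858), with log2 differences of -0.27 to -0.25. Without control 4 and canagliflozin 4 the difference was -0.34 with an adjusted p of 0.000298. The single call is 5.88% of 17 kinesin genes, while 13.3% of all tested genes were called in this comparison, 6.87% being called higher and 6.41% lower. The groups did not overlap in 3 kinesin genes (kif2c, kif1b and kif3cb), or 17.6%, against 19.1% of all tested genes. On both counts the kinesin genes were not above the background of the whole table.

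kif11 had the next lowest difference among the mitotic kinesins. kif11 (Entrez 195818) encodes the motor that slides antiparallel microtubules to push the spindle poles apart. It was at 280.4, 297.4, 301.2 and 261.2 CPM in empagliflozin pools 1 to 4 and at 350.4, 368.6, 345.3 and 293.7 CPM in control pools 1 to 4. Control 4 lay within the range of the empagliflozin pools, and the other 3 controls lay above it. The difference of -0.25 (interval -0.44 to -0.06) missed the threshold, with a limma adjusted p of 0.0774. It passed without control 4 (-0.32, adjusted p 0.0173) and without canagliflozin 4 (-0.25, adjusted p 0.0231), which enters only through the shared estimate of the spread. Calls among all tested genes also grew in these fits, to 3033 and 2708, against 1589 with all pools. Over 22 alternative fits, which left out pools or changed a setting, kif11 was called in 5, with adjusted p up to 0.202.

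kif22 differed in the other direction. Its product is a chromokinesin, which binds DNA and pushes chromosome arms toward the spindle equator. kif22 (Entrez 561788) was at 165.1, 177.3, 166.5 and 173.7 CPM in empagliflozin pools 1 to 4, and at 135.5, 139.2, 136.9 and 165.3 CPM in control pools 1 to 4. Control 4 again lay at the empagliflozin level, and the other 3 controls lay close together below it. This gave a log2 difference of 0.25 (interval 0.06 to 0.43; limma adjusted p 0.0732), above the threshold. It was called without control 4 (0.31, adjusted p 0.0157) and without canagliflozin 4 (adjusted p 0.0164). Of the 22 alternative fits 5 called kif22, and the largest adjusted p was 0.175. In the RefSeq gene table (assembly GRCz12tu) kif22 overlaps fra10ac1, and the strand setting of the read counting is not given in the sources used here. fra10ac1 had a log2 difference of 0.22 (adjusted p 0.302), and its part in the value of kif22 was not tested. kif18a, kif20a, kif3a, kif7 and kif1bp overlap other genes there as well.

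The other 5 mitotic kinesins did not pass. kif23, whose product bundles microtubules of the central spindle in cytokinesis, differed by -0.15 (interval -0.32 to 0.03). kif14, also a gene of cytokinesis, differed by -0.12. kif4, which encodes a chromokinesin that also shapes the central spindle, differed by -0.08. kif18a, whose product damps the movements of chromosomes at metaphase, was at 47.7 ± 0.813 CPM in empagliflozin and 48.5 ± 1.76 CPM in control (SD, n = 4 each). Its log2 difference was -0.02, with an interval of -0.17 to 0.12. kif20a, needed for the final steps of cell division, differed by 0.10; its span overlaps that of cdc23 in the same RefSeq table, and cdc23 differed by -0.18 (adjusted p 0.124). Over the 8 mitotic kinesins, 2 had a higher and 6 a lower mean with empagliflozin. Their median log2 difference was -0.10, against -0.0011 over all 11964 tested genes, whose median difference with signs set aside was 0.15.

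Control 4 differed from the other 3 controls in both classes. From their mean it stood at -0.27 for kif11, -0.25 for kif14, -0.22 for kif2c, -0.18 for kif23 and 0.27 for kif22 on the log2 scale. Among the axonal kinesins it stood at -0.23 for kif5aa, -0.15 for kif1b, -0.12 for kif3cb and 0.05 for kif5c, the last within the range of the other 3.

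Among axonal kinesins, kif1b was the most even within the empagliflozin group, though this spread was not set beside the error of counting reads. kif1b (Entrez 369190) encodes a kinesin-3 motor that carries mitochondria and precursors of synaptic vesicles along axons. Its levels were 83.8, 86.0, 84.5 and 85.4 CPM in empagliflozin pools 1 to 4, and 75.9, 69.8, 75.9 and 66.5 CPM in control pools 1 to 4. All 4 empagliflozin pools lay above all 4 controls. The difference of 0.24 on the log2 scale (interval 0.06 to 0.41) missed the threshold (limma adjusted p 0.064). It was called without canagliflozin 4 (adjusted p 0.0223) and without both pools that stand apart (0.20, adjusted p 0.0262). Without control 4 alone it was not called (0.20, adjusted p 0.0944). Of the 22 alternative fits 4 called kif1b, and the largest adjusted p was 0.15.

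kif3cb (Entrez 550547), a kinesin-2 gene whose mammalian counterpart is most abundant in neurons, was low in all pools. It had 6.90, 6.40, 5.83 and 6.42 CPM in empagliflozin pools 1 to 4 and 5.20, 4.90, 5.73 and 4.75 CPM in control pools 1 to 4. The groups did not overlap, with empagliflozin 3 and control 3 close to each other. The log2 difference was 0.27 (interval 0.06 to 0.48; limma adjusted p 0.0808). Of the 22 alternative fits, in limma or edgeR, 0 called kif3cb (adjusted p 0.0502 to 0.181). The authors' deposited table gives false discovery rates of 0.0455 for kif3cb, 0.0466 for kif1b and 0.041 for kif2c in this comparison. Those 3 were the only kinesin genes at or under 0.05 there, and kif22 (0.0627), kif11 (0.0776) and kif5c (0.08475) were above it. The share of all genes at or under 0.05 in that table is not given here. The authors' filtered list for this comparison, of 8 entries, held 0 kinesin genes.

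kif5c and kif5aa encode heavy chains of kinesin-1, the conventional kinesin of anterograde axonal transport. kif5c (Entrez 565563) was at 19.7, 19.2, 19.5 and 16.1 CPM in empagliflozin pools 1 to 4, and at 15.3, 17.6, 12.1 and 15.4 CPM in control pools 1 to 4. Empagliflozin 4 lay below control 2, so that the groups overlapped. kif5c differed by 0.29 on the log2 scale (interval 0.07 to 0.51; limma adjusted p 0.0706). Without both pools that stand apart it was called (0.30, adjusted p 0.0453). This was the only 1 of the 22 alternative fits that called kif5c, and the largest adjusted p was 0.212.

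kif5aa was level across the study. It averaged 47.4 ± 1.40 CPM in empagliflozin, 47.6 ± 4.67 CPM in canagliflozin and 47.8 ± 4.26 CPM in control (SD, n = 4 each). The log2 difference of empagliflozin against control was -0.01, with an interval of -0.18 to 0.16. RefSeq also lists the copies kif5ab and kif3ca, and how the counting split reads between such copies is not given in the sources used here, which leaves the levels of kif5aa and kif3cb uncertain to that extent.

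**Figure D2:**
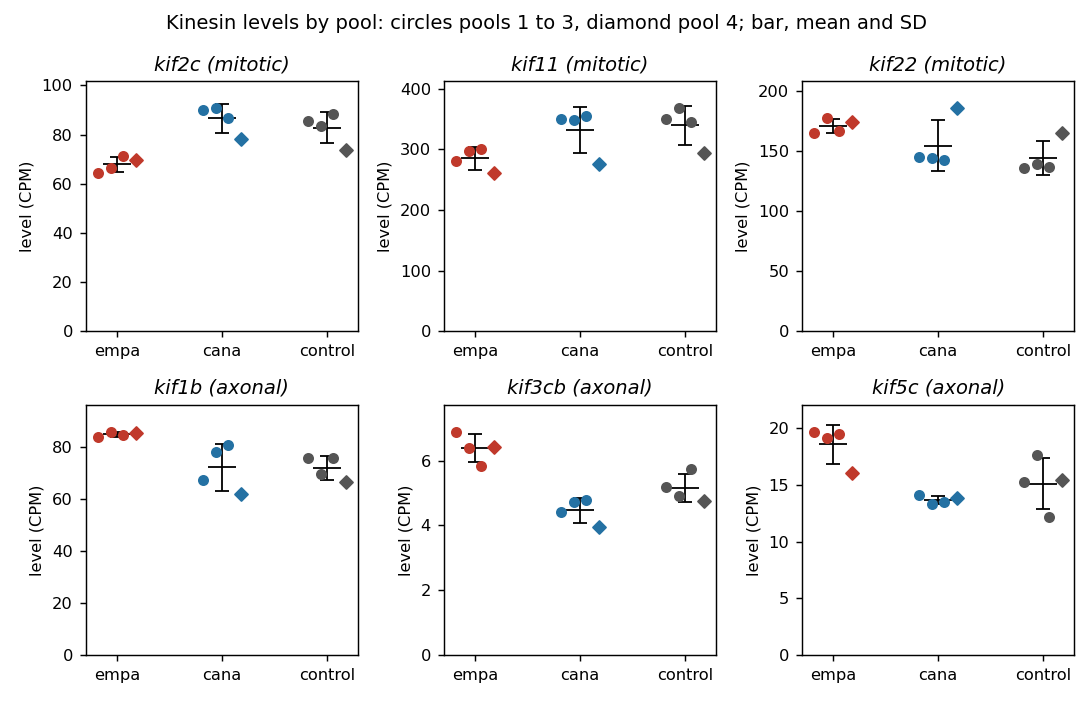
Levels in CPM (vertical, from 0) of 3 mitotic kinesins (upper panels) and 3 axonal kinesins (lower panels) in each pool, by group; circles are pools 1 to 3, diamonds pool 4, and bars the mean and SD of 4 pools. For kif2c, kif1b and kif3cb all empagliflozin pools lie on one side of all controls, and for kif11 and kif22 the diamond of the controls lies at the empagliflozin level.

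Over the 4 axonal kinesins, 3 had a higher and 1 a lower mean with empagliflozin, and 0 were called. Their median log2 difference was 0.25, against -0.0011 over all tested genes. With signs set aside, the median difference was 0.15 over all tested genes and 0.12 over the 17 kinesin genes. Set against the control mean in each pool, the median of the axonal kinesins lay between 0.17 and 0.29 in the empagliflozin pools and between -0.10 and 0.05 in the controls. The median of the mitotic kinesins lay between -0.16 and 0.01 in the empagliflozin pools and between -0.10 and 0.06 in the controls. Axonal medians thus separated these groups of pools and mitotic medians overlapped. In summed levels, the 8 mitotic kinesins held 946.0 to 1054 CPM in empagliflozin and 1009 to 1102 CPM in control. The 4 axonal kinesins held 154.4 to 160.6 CPM in empagliflozin and 128.9 to 145.7 CPM in control.

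**Figure D3:**
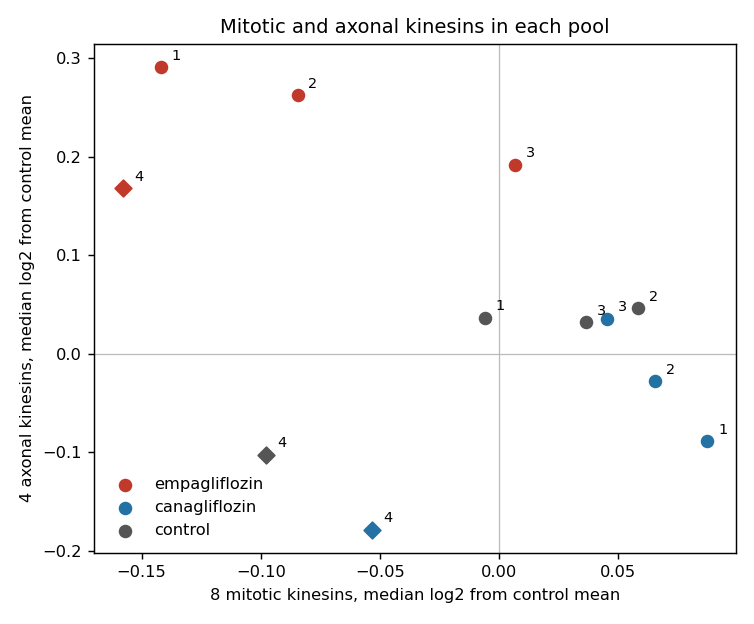
Each point is 1 pool, numbered within its group; the horizontal axis is the median over 8 mitotic kinesins and the vertical axis the median over 4 axonal kinesins of log2(CPM + 1) minus the control mean. Diamonds mark pool 4 of each group. The empagliflozin pools lie highest on the vertical axis (0.17 to 0.29), and pools 4 of control and canagliflozin are the lowest of their own groups on both axes.

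The ciliary kinesins did not pass either. kif3a and kif3b encode the motor subunits of the kinesin-2 that carries material to the tip of the cilium. Their log2 differences were 0.10 (limma adjusted p 0.426) and 0.16 (adjusted p 0.333). kif3a was at 54.5, 52.9, 52.8 and 42.5 CPM in empagliflozin pools 1 to 4 and at 44.8, 46.0, 44.8 and 52.7 CPM in control pools 1 to 4. In each group pool 4 stood on the side of the other group. kif7, a regulator of Hedgehog signaling at the cilium tip, averaged 54.6 ± 4.19 CPM in empagliflozin and 53.2 ± 2.47 CPM in control. kif6, whose loss curves the spine in zebrafish, averaged 2.56 ± 0.310 CPM in empagliflozin and 2.60 ± 0.523 CPM in control. kif1bp averaged 29.2 ± 1.28 CPM in empagliflozin and 30.4 ± 1.91 CPM in control (SD, n = 4 each throughout).

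Partners of the motors were read from the same fit. Of 8 measured genes (light chains, adaptors, other partners and the kinesin cenpe), 1 was called, beside 13.3% of all tested genes. In 7 of them, cenpe included, the mean was higher with empagliflozin. The called gene, kifap3b, encodes the subunit that joins the kinesin-2 motors to cargo. It was at 43.7, 44.4, 38.7 and 42.3 CPM in empagliflozin pools 1 to 4 and at 32.1, 31.4, 33.9 and 38.4 CPM in control pools 1 to 4. All empagliflozin pools lay above all controls, with control 4 near the lowest of them. The log2 difference was 0.31 (limma adjusted p 0.0201). The call was lost without empagliflozin 1 or 2 or control 1, 2 or 3 (adjusted p 0.0524 to 0.0698). Its copy kifap3a was at 23.3 ± 1.54 CPM in empagliflozin and 27.6 ± 2.96 CPM in control, a log2 difference of -0.23 (adjusted p 0.164). cenpe, a kinesin of the kinetochore whose symbol falls outside the rule, differed by 0.17 (adjusted p 0.286). Of 22 genes of dynein and dynactin, the motor that runs the other way along microtubules, 2 rose and 2 fell, with a median log2 difference of 0.01.

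Other lists were read from the same fit, in which 6.87% of all tested genes rose and 6.41% fell. Of 25 tested genes of mitosis and the spindle, 6 fell and 0 rose, with a median log2 difference of -0.06. Among them were cyclin B1, ccnb1 (-0.31, limma adjusted p 0.00998), and the kinase gene aurkb (-0.33, adjusted p 0.0233). The call of aurkb was lost without empagliflozin 2, 3 or 4 or control 1, 2 or 3 (adjusted p 0.0514 to 0.0801). Among neuron markers 4 of 13 rose and 0 fell (median log2 difference 0.16). elavl3, which encodes an RNA-binding protein of young neurons, had 284.3 CPM in empagliflozin and 219.6 CPM in control on average. The summed level of the neuron markers was 914.6 to 951.9 CPM in empagliflozin and 703.3 to 813.1 CPM in control. Of 13 markers of neural progenitors 5 rose and 0 fell, while 8 had a higher and 5 a lower mean with empagliflozin. Their summed levels, in which the most abundant markers weigh most, were 2849 to 3064 CPM in empagliflozin and 2414 to 2766 CPM in control. Of 13 yolk and liver markers tested 4 fell and 0 rose, with summed levels of 19589 to 23876 CPM in empagliflozin and 21564 to 24071 CPM in control; 1 of 14 measured was at 0 in a library. Of 9 myeloid markers 3 fell and 0 rose, with summed levels of 154 to 164 CPM in empagliflozin and 171 to 211 CPM in control. The part of these cell types in the kinesin levels was not tested.

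The second comparison set canagliflozin beside control, at an equal dose and duration. No kinesin gene passed. The number called in limma was 0 of 17 and 0 of all 11964 tested genes (0%), and edgeR on recovered reads also called 0 of both. At an unadjusted p under 0.05 limma had 0 kinesin genes and 925 genes in all, and edgeR had 0 kinesin genes. The groups overlapped in all 17 kinesin genes, while they did not overlap in 4.49% of all tested genes.

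The differences were small in both classes. The 4 axonal kinesins had lower mean log2 levels, with a median difference of -0.07, and kif1b was all but level, at 72.2 ± 8.89 CPM in canagliflozin and 72.0 ± 4.70 CPM in control (SD, n = 4 each). Of the 8 mitotic kinesins 6 had higher mean log2 levels, with a median difference of 0.06. Leaving out 1 pool at a time moved the axonal median between -0.09 and -0.03 and the mitotic median between 0.01 and 0.07. The smallest unadjusted p among the members was that of kif3cb, at 4.43, 4.72, 4.77 and 3.94 CPM in canagliflozin pools 1 to 4 beside the control levels given above. Its log2 difference was -0.17 (interval -0.38 to 0.04; limma adjusted p 0.691). Next came the ciliary kif3a, at 41.5, 42.5, 44.9 and 42.2 CPM in canagliflozin pools 1 to 4 (log2 difference -0.13, adjusted p 0.723). kif3b differed by -0.15 (adjusted p 0.774), kif5c by -0.12 (adjusted p 0.796), kif6 by -0.16 (adjusted p 0.825) and kif22 by 0.09 (adjusted p 0.837). kif3b had 13.8, 15.8, 18.0 and 15.1 CPM in control pools 1 to 4, and its canagliflozin levels are given with the comparison of the compounds. kif6 ranged from 1.49 to 2.64 CPM in canagliflozin and from 2.22 to 3.33 CPM in control. Intervals of the 17 members ran from -0.46 to 0.28 at the extremes, with a median half-width of 0.18, and differences smaller than this could not be told from none with these pools.

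The kif22 value rested on canagliflozin 4. kif22 was at 145.0, 143.8 and 142.7 CPM in canagliflozin pools 1 to 3 and at 185.9 CPM in pool 4. Without that pool the log2 difference from control was 0.00084 (adjusted p 0.998). kif11 showed the reverse, with 350.2, 348.6 and 354.3 CPM in pools 1 to 3 and 276.1 CPM in pool 4. Among the axonal kinesins, canagliflozin 4 stood from the mean of the other 3 pools at -0.27 for kif1b, -0.19 for kif3cb, -0.19 for kif5aa and 0.02 for kif5c on the log2 scale.

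Empagliflozin against canagliflozin compares 2 related molecules at 50 µM after the same 4 hours. Both are glucosides with a carbon-linked aryl group; the aglycone of empagliflozin has a chlorinated ring and a cyclic ether side chain, and that of canagliflozin a methylated ring and a thiophene with a fluorinated phenyl. More kinesin genes passed here than against control. Of 17 kinesin genes 5 passed: kif3cb, kif5c, kif1b and kif3b were higher with empagliflozin and kif2c was lower. These are 29.4% of the kinesin genes, beside 25.5% of all tested genes (12.4% higher and 13.1% lower), so that the share is near the background. The groups did not overlap in 4 kinesin genes, or 23.5%, against 25.6% of all tested genes. Both this comparison and the one of empagliflozin with control use the same empagliflozin pools.

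**Figure D4:**
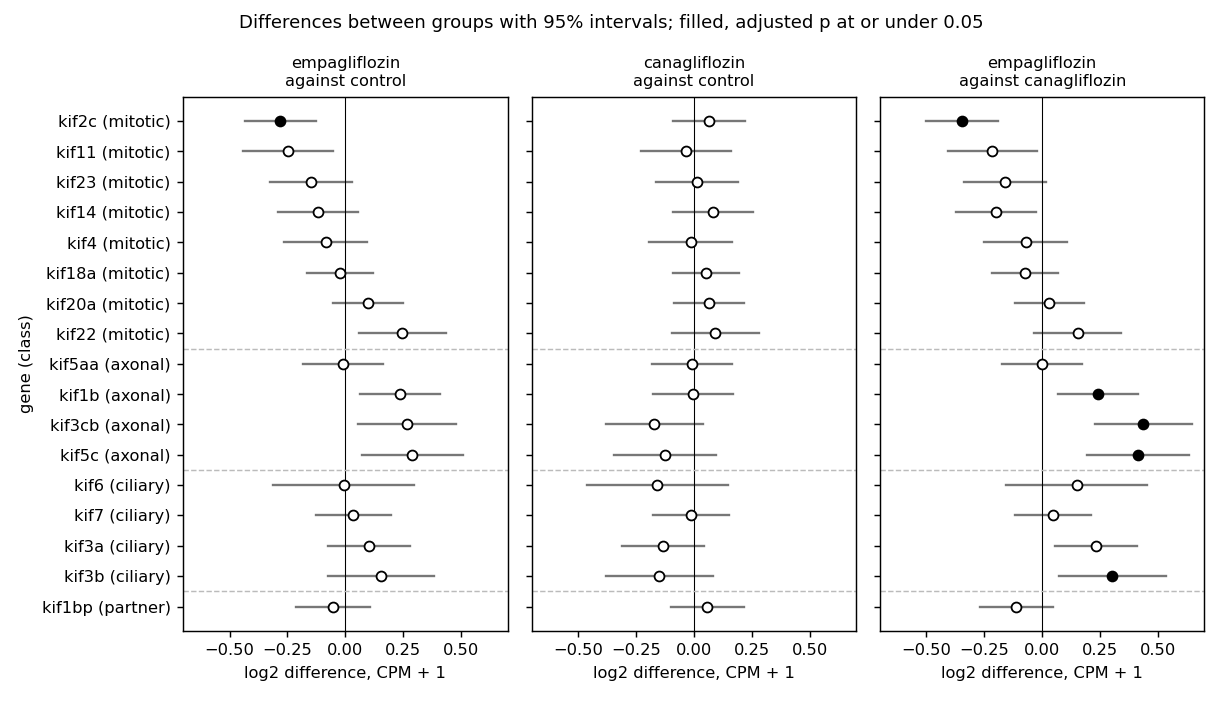
Differences of mean log2(CPM + 1) for 17 kinesin genes (down, by class) in 3 comparisons (panels), with 95% intervals; filled points were called at a limma adjusted p of 0.05 or less. kif2c is filled in the left and right panels, kif1b, kif3cb, kif5c and kif3b in the right panel alone, and none in the middle panel.

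The largest difference was in kif3cb, followed by kif5c. kif3cb averaged 6.39 ± 0.439 CPM in empagliflozin and 4.46 ± 0.382 CPM in canagliflozin (SD, n = 4 each), and all empagliflozin pools lay above all canagliflozin pools. This is a log2 difference of 0.44, or 1.35-fold on the CPM + 1 scale (interval 0.23 to 0.65; limma adjusted p 0.00591). kif5c was at 14.1, 13.4, 13.5 and 13.8 CPM in canagliflozin pools 1 to 4, below all 4 empagliflozin pools. Its log2 difference was 0.41, or 1.33-fold, with a limma adjusted p of 0.00969 (interval 0.20 to 0.63). The authors' deposited table gives false discovery rates of 0.0376 for kif3cb and 0.0392 for kif5c in this comparison. Here too the share of all genes at or under 0.05 in that table is not given. The authors' filtered list for the same comparison, of 45 entries, held 0 kinesin genes.

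kif2c was 1.27-fold lower with empagliflozin. In canagliflozin pools 1 to 4 it had 90.2, 90.9, 86.9 and 78.2 CPM, all above the 4 empagliflozin pools. The log2 difference was -0.34 (interval -0.50 to -0.19; limma adjusted p 0.00409). In the authors' deposited table its false discovery rate was 0.0553 in this comparison. kif2c, kif3cb and kif5c kept their calls in all 22 alternative fits of this comparison, with adjusted p of at most 0.0172, 0.021 and 0.0314 in that order.

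kif1b and kif3b passed narrowly. kif1b was at 67.4, 78.2, 81.0 and 62.1 CPM in canagliflozin pools 1 to 4, all below the empagliflozin pools but spread more widely than them. Its log2 difference was 0.24 (interval 0.07 to 0.41; limma adjusted p 0.041). The call was lost without empagliflozin 1, 2, 3 or 4 (adjusted p 0.0714 to 0.0887), canagliflozin 1 (0.117), canagliflozin 4 (0.0794) or control 2 (0.0519), and with quantile normalization (0.0784). kif3b was at 18.4, 18.0, 18.5 and 15.2 CPM in empagliflozin pools 1 to 4, and at 14.3, 15.0, 15.6 and 11.5 CPM in canagliflozin pools 1 to 4. Empagliflozin 4 lay among the canagliflozin pools. kif3b differed by 0.30 (interval 0.07 to 0.53; limma adjusted p 0.04996), and the call was lost without empagliflozin 1, 2 or 3, canagliflozin 1, 2 or 4, or control 2 (adjusted p 0.0627 to 0.116). It was also lost with a pseudocount of 5 (0.0501), with no minimum level (0.0696) and with the groups compared fitted alone (0.0515). Without both pools that stand apart, kif3b was not called (0.21, limma adjusted p 0.0932) and kif1b was (0.17, adjusted p 0.0449). The authors' deposited table gives false discovery rates of 0.141 for kif1b and 0.0831 for kif3b in this comparison, both above 0.05.

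The kinesin-2 genes all had higher means with empagliflozin apart from kifap3a. They come from the axonal, ciliary and partner lists and were grouped with their values known. Of the 8 genes of the partner list, which includes the kinesin cenpe, 2 were called, both higher, beside 25.5% of all tested genes called in either direction. The motor genes kif3a, kif3b and kif3cb had log2 differences of 0.23 (limma adjusted p 0.0519), 0.30 and 0.44, and the accessory subunit gene kifap3b of 0.43 (adjusted p 0.00143). kifap3b was at 31.5, 32.1, 29.96 and 30.8 CPM in canagliflozin pools 1 to 4, below every empagliflozin pool, and its call held in all 22 alternative fits. kifap3a differed by -0.17 (adjusted p 0.272). kif3a passed in 6 of 22 alternative fits, among them edgeR on recovered reads (adjusted p 0.0456) and limma without empagliflozin 4 (0.31, adjusted p 0.00919). Its largest adjusted p over these fits was 0.14. Of kinesin-1, the light chain gene klc1a averaged 32.1 ± 3.24 CPM in empagliflozin and 26.2 ± 3.16 CPM in canagliflozin (SD, n = 4 each; log2 0.28, adjusted p 0.0348), beside kif5c at 0.41 and the level kif5aa. The call of klc1a was lost without empagliflozin 1, 2 or 3 or canagliflozin 1 or 4 (adjusted p 0.066 to 0.103), without both pools that stand apart (0.0552) and with the compared groups fitted alone (0.052). The other light chain genes measured also had higher means and were not called (limma adjusted p 0.0777 to 0.329).

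Of the 8 mitotic kinesins, 1 fell and 0 rose, and 6 had a lower mean with empagliflozin. Their median log2 difference was -0.12, against 0.33 for the 4 axonal kinesins and 0.0072 over all tested genes. With signs set aside, the median difference was 0.18 over all tested genes and 0.16 over the kinesin genes. kif11 differed by -0.22 (limma adjusted p 0.0913), kif14 by -0.20 (adjusted p 0.0814), kif23 by -0.16 (adjusted p 0.163) and kif22 by 0.15 (adjusted p 0.211). Without canagliflozin 4 these differences were -0.30, -0.24, -0.24 and 0.24, and all 4 passed (adjusted p 0.00756, 0.0368, 0.015 and 0.0143). The differences of kif1b and kif3b were smaller in that fit, at 0.17 and 0.21, and did not pass (limma adjusted p 0.0794 and 0.103). The number of kinesin genes called was then 7, while the calls among all tested genes numbered 4234, against 3049 with all pools.

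In this comparison 12.4% of all tested genes rose and 13.1% fell. Of 25 spindle genes tested, 10 fell and 0 rose in empagliflozin against canagliflozin, with a median log2 difference of -0.11. Among them were plk1, which encodes a mitotic kinase (-0.41, limma adjusted p 0.000468), and aurkb (-0.55, adjusted p 0.000674). Among neuron markers 8 of 13 rose and 0 fell (median log2 difference 0.31), and their summed level was 914.6 to 951.9 CPM in empagliflozin and 691.0 to 811.4 CPM in canagliflozin. Among neural progenitor markers 4 rose and 5 fell of 13. Canagliflozin 4 had the highest neuron marker sum of its group (811.4 CPM) and the lowest axonal kinesin sum (122.8 CPM). The same held for control 4 (813.1 and 128.9 CPM), while both sums ranked pools 1 to 3 of each of these groups alike. In empagliflozin the sums ranked the pools in reverse order. Pools 1 to 4 held 928.1, 914.6, 923.4 and 951.9 CPM of neuron markers and 156.4, 160.6, 157.9 and 154.4 CPM of axonal kinesins. The median log2 differences from the control mean did not rank them in reverse, and pool 1 was highest in both lists. For neuron markers these medians were 0.28, 0.11, 0.19 and 0.18 in empagliflozin pools 1 to 4. For axonal kinesins they were 0.29, 0.26, 0.19 and 0.17. Whether the kinesin differences follow the amount of neurons or of dividing cells in the pools was not tested.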

How the data were processed

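Stranded mRNA libraries of 12 embryo pools were sequenced as 50-base pairs, per the labels' protocols. The submitters' processing notes name FastQC, R 3.6.1 and the genome build danRer10. An aligner, a counter and its strand setting were not given in the sources used here. In the deposited signal table are normalized values per gene that the authors scaled: 100% of the values were whole reads within 0.001 reads after division by one step per library, which is the form of CPM with TMM factors. Fold values on a log2 scale and p-values with false discovery rates come from the authors' deposited comparison tables and are quoted only where named.

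From the signal values, log2(CPM + 1) was computed for 14134 genes. The 11964 genes with a mean of at least 1 CPM were fitted with limma 3.58.1 in R 4.3.3 (3 group means in 1 fit, intensity trend) and adjusted by Benjamini-Hochberg; 2170 genes were set aside. edgeR 4.0.16 on the recovered reads called 1469 genes for empagliflozin against control, 0 for canagliflozin against control and 2985 for empagliflozin against canagliflozin, where limma called 1589, 0 and 3049. Intervals cover 95%. A count of 3 reads equals 0.109 to 0.186 CPM. Over the whole table, pairs of libraries of a group differed by a chi-square of 5.16 to 41.0 per degree of freedom, so none was a duplicate. That measure does not give the counting error of single kinesin genes, which was not set beside their spread. It is largest for genes with few reads, such as kif3cb (76 to 96 reads in canagliflozin) and kif6 (24 to 71 reads over all pools). The code was tested on simulated data.

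Members that passed in a comparison, and otherwise those with the smallest p up to 6, were described in full, and every mitotic and axonal kinesin was named for empagliflozin against control; up to 3 called genes with the smallest p could be named from each other list, and kifap3a and cenpe were chosen after their values were seen. The members and lists were chosen with earlier results of these data known. Gene names were matched to RefSeq by Entrez ID for 16 members and by synonym for 1. Coordinates and sequences were not used here.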

Additional observations from a re-analysis of the deposited data

Results flagged for a closer look

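Within a group of 4 pools, a level was marked when the gap from the highest or lowest pool to its nearest neighbor exceeded Dixon's 95% critical share of the group's range. Of 51 groups (17 kinesin genes in 3 groups), 10 were marked, and chance marks about 1 in 20. The share of all tested genes marked by this rule is not given here. Control 4 and canagliflozin 4 stood apart over the whole table, so the count is not a result about kinesin genes. Of the 10, 6 were in control 4 or canagliflozin 4.

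In canagliflozin 4, kif22 stood at 185.9 CPM above the other 3 pools at 142.7 to 145.0 CPM, kif11 at 276.1 CPM below the others at 348.6 to 354.3 CPM, and kif4 at 125.5 CPM below the others at 152.4 to 157.8 CPM. In control 4, kif22 stood at 165.3 CPM above the others at 135.5 to 139.2 CPM, kif3a at 52.7 CPM above the others at 44.8 to 46.0 CPM, and kif14 at 50.0 CPM below the others at 58.9 to 60.5 CPM.

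The other marked levels were in empagliflozin. kif3a (42.5 CPM), kif3b (15.2 CPM) and kif5c (16.1 CPM) were low in pool 4, where the other 3 pools held 52.8 to 54.5, 18.0 to 18.5 and 19.2 to 19.7 CPM in that order. kif23 was high in pool 3, at 124.7 CPM against 107.9 to 110.5 CPM.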

How the results depend on the processing

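Counts of called kinesin genes depended on the pools. For empagliflozin against control, 1 was called; leaving out each pool in turn gave 0 to 4, leaving out control 4 and canagliflozin 4 together gave 6 (kif2c, kif11, kif22, kif23, kif1b and kif5c), and fitting the compared groups alone gave 4. Calls among all tested genes moved with these counts: 1589 with all pools, 268 to 3033 when each pool was left out (3033 without control 4, where 3 kinesin genes were called, and 2708 without canagliflozin 4, where 4 were), and 1992 for the compared groups alone. For empagliflozin against canagliflozin, 5 were called, with 3 to 7 when each pool was left out and 9 without both pools. The 9 did not include kif3b, which was called with all pools. All tested genes gave 3049, 1932 to 4234, and 4887. For empagliflozin against control, all tested genes gave 4246 without both pools. For canagliflozin against control the count was 0 in all 22 alternatives.

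The median of the mitotic kinesins in empagliflozin against canagliflozin was -0.12, with -0.19 to -0.10 when each pool was left out and -0.19 without both. Medians of the mitotic and axonal kinesins kept their sign in all 22 alternatives of all 3 comparisons. kif5aa, level in empagliflozin against control (-0.01), ranged from -0.065 to 0.036 when each pool was left out and changed sign without empagliflozin 1 (0.0053), control 1 (0.0066) or control 2 (0.036).

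Pool numbers did not pair the samples in general, with pool 4 of canagliflozin and control as the exception. Same-numbered deviations correlated at -0.10 to 0.26 for empagliflozin against control and at -0.09 to 0.07 for empagliflozin against canagliflozin. For canagliflozin against control they correlated at -0.12 to 0.59, the 0.59 being in pool 4. In these comparisons 2, 1 and 2 of 8 libraries, in that order, correlated best with their own number. The levels marked above lay in pools numbered 4, apart from kif23 in empagliflozin 3. An effect shared by the pools numbered 4 was not tested. With the replicate number as a block, 4 kinesin genes (kif2c, kif22, kif11 and kif1b) and 2269 of all tested genes were called for empagliflozin against control. For empagliflozin against canagliflozin the block called 6 kinesin genes, kif11 among them (-0.22, limma adjusted p 0.0174), and 3456 genes in all. The alternatives also covered pseudocounts of 0.1 and 5, no minimum and one of 5 CPM, median centring, quantile normalization and edgeR. Limits: 4 pools per group, an unknown number of clutches, and no transcript lengths.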
